A study of Mus musculus with 6 samples.

Results

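Lysosomes are acidic organelles in which soluble hydrolases break down proteins, sugar chains, glycosaminoglycans and lipids, while proteins of the limiting membrane protect it, acidify the lumen and export the products. Most hydrolases carry mannose 6-phosphate and reach the lysosome through its receptors, and many of their genes hold binding sites for the TFEB family of transcription factors in the promoter. In the epididymis, clear cells take up luminal material and are rich in lysosomes, and principal cells also release several glycosidases and the cholesterol-binding protein NPC2 into the fluid around the sperm. The genes described here are 39 named genes for lysosomal hydrolases, their cofactors and lysosomal membrane proteins, chosen by symbol, out of 57127 genes listed for whole mouse epididymis. They comprise 8 proteases, 9 glycosidases, 7 enzymes of glycosaminoglycan (mucopolysaccharide) breakdown, 8 lipid enzymes and cofactors and 7 membrane proteins. Aga, whose product cuts the bond between asparagine and the sugar chain, is counted with the glycosidases. Gusb, for beta-glucuronidase, is counted with the glycosaminoglycan enzymes. All 39 had enough counts to be among the 19691 genes tested.

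The study compared adult C57BL/6 mice of 2 genotypes: wild-type animals (WT) and Ocln-KO animals, which lack occludin, a protein of epithelial tight junctions, in every tissue and were bred from heterozygous parents. The labels name no treatment, and rRNA-depleted RNA of the whole epididymis was sequenced in 3 libraries of each genotype. The methods describe extraction from 3 pairs of mice and also mention pooled RNA, so n counts libraries, and the spread between them may be technical in part. Levels are CPM (counts relative to the size of the library), scaled by the TMM factors of edgeR, and log2 fold changes are Ocln-KO against WT with their standard error (SE). A gene is said to have risen or fallen where the quasi-likelihood test of edgeR, adjusted by the Benjamini-Hochberg method over all genes tested, gave an adjusted p under 0.05. The tissue is whole, so fewer cells of a type and less RNA per cell cannot be told apart.

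The targeted gene Ocln had 85.9, 78.8 and 91.8 CPM in WT replicates 1, 2 and 3 and 15.1, 15.3 and 14.9 CPM in the Ocln-KO replicates, a log2 fold change of -2.50 (SE 0.09, adjusted p = 0.000108). Total counts ran from 30646424 to 38870780 a library, which makes 1 count worth between 0.0267 and 0.0314 CPM, and the WT libraries were the 3 largest. Ocln-KO replicate 3 stood apart from the other libraries: on the first principal component, which held 47.2% of the variance, it lay at 86.1, against 17.9 and 29.2 for Ocln-KO replicates 1 and 2 and -53.0 to -36.7 for WT. Its marker lists also differed, with 81.4 summed CPM of sperm and spermatid markers against 249 to 323 in the other 5 libraries. The osteoclast and fibroblast list summed to 3973 CPM, against 1396 to 1991. Col1a1 and Col3a1, of the fibroblast markers, made up most of that 3973, at 1490 and 1705 CPM. The osteoclast markers Acp5 and Dcstamp had 5.09 and 0.178 CPM in Ocln-KO replicate 3.

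Promoter sequences are shown for 6 lysosomal genes. Lamp1, Cln3, Mcoln1 and Gla were picked for at least 2 copies of the motif CACGTG in an 80-base run before the start. Lipa and Npc2 were picked for the largest fall in log2 fold change and in mean CPM. Ctsa and Ctsd also hold 2 copies, but not in such a run. Any copy was held by 12 of the 33 lysosomal genes with a RefSeq promoter. CACGTG is the core of the element that TFEB and related factors bind. Lipa and Npc2, the lipid genes that fell in Ocln-KO, have no copy in the 300 bases around their start. Cln3 has 2 RefSeq starts, and its window belongs to a start inside the annotated gene (126571207 to 126585817). The windows of Mcoln1 and Npc2 lie before the RefSeq start but run into the annotated gene (3500457 to 3515232 and 84754562 to 84773152). The CACGTG of Mcoln1 nearer to the RefSeq start lies inside the annotated gene. Each run has 80 bases, reads 5′ to 3′ on the strand of the gene, and comes from the RefSeq annotation of GRCm38.p6, with CACGTG in capitals. The windows are chr8:13159081-13159160 on the plus strand for Lamp1, chr7:126583329-126583408 on the minus strand for Cln3, chr8:3500424-3500503 on the plus strand for Mcoln1, chrX:134601174-134601253 on the minus strand for Gla, chr19:34527475-34527554 on the minus strand for Lipa and chr12:84773113-84773192 on the minus strand for Npc2.
Lamp1: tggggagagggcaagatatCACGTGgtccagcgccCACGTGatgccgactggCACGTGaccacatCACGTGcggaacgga
Cln3: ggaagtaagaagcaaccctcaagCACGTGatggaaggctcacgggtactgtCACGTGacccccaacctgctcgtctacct
Mcoln1: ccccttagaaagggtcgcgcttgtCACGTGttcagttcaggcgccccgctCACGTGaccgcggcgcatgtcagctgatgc
Gla: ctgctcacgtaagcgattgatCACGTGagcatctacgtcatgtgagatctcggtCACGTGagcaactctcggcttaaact
Lipa: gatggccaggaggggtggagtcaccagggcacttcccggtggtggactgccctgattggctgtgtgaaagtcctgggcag
Npc2: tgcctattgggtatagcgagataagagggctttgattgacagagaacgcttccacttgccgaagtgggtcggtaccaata

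Of the 39 lysosomal genes, 8 fell (20.5%) and 1 rose (2.56%), where 5.04% of all genes tested fell, 3.91% rose and 8.95% did either. The 8 that fell were the glycosidase genes Hexa, Fuca1 and Manba, the aspartylglucosaminidase gene Aga, the glucuronidase gene Gusb, the acid lipase gene Lipa, the cholesterol carrier gene Npc2 and the membrane glycoprotein gene Lamp1. Tcirg1, for a proton pump subunit, was the gene that rose. Lipa alone fell by more than 2-fold, a size reached together with an adjusted p under 0.05 by 1.7% of all genes tested in the lower and 1.49% in the higher direction. The other 30 did not pass the test. The median log2 fold change of the 39 was -0.20, with a range from -1.15 to 0.75, beside a median of 0.01 over all genes tested. In 17 of the 39, each Ocln-KO library lay below each WT library, a pattern shown by 19.4% of all genes tested, and in 1, Tcirg1, each lay above, against 16.9% of all genes (36.3% in either direction).

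These counts moved with single libraries. Without Ocln-KO replicate 3, the library that stood apart, 8 of the 39 again fell and 1 rose, 7 of these 9 being genes called with all 6 libraries, and the median was -0.29. Without WT replicate 1 or WT replicate 3, none passed the edgeR test, although 14 and 11 were lower and 1 was higher at an unadjusted p under 0.05; without WT replicate 2, Hexa and Lipa passed, and without Ocln-KO replicate 2, 5 genes did. Over all genes, those fits without a WT replicate called 19, 145 and 40 genes lower, where 992 were called with all libraries, and 2338, 2573 and 2227 were lower at an unadjusted p under 0.05.

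**Figure D1:**
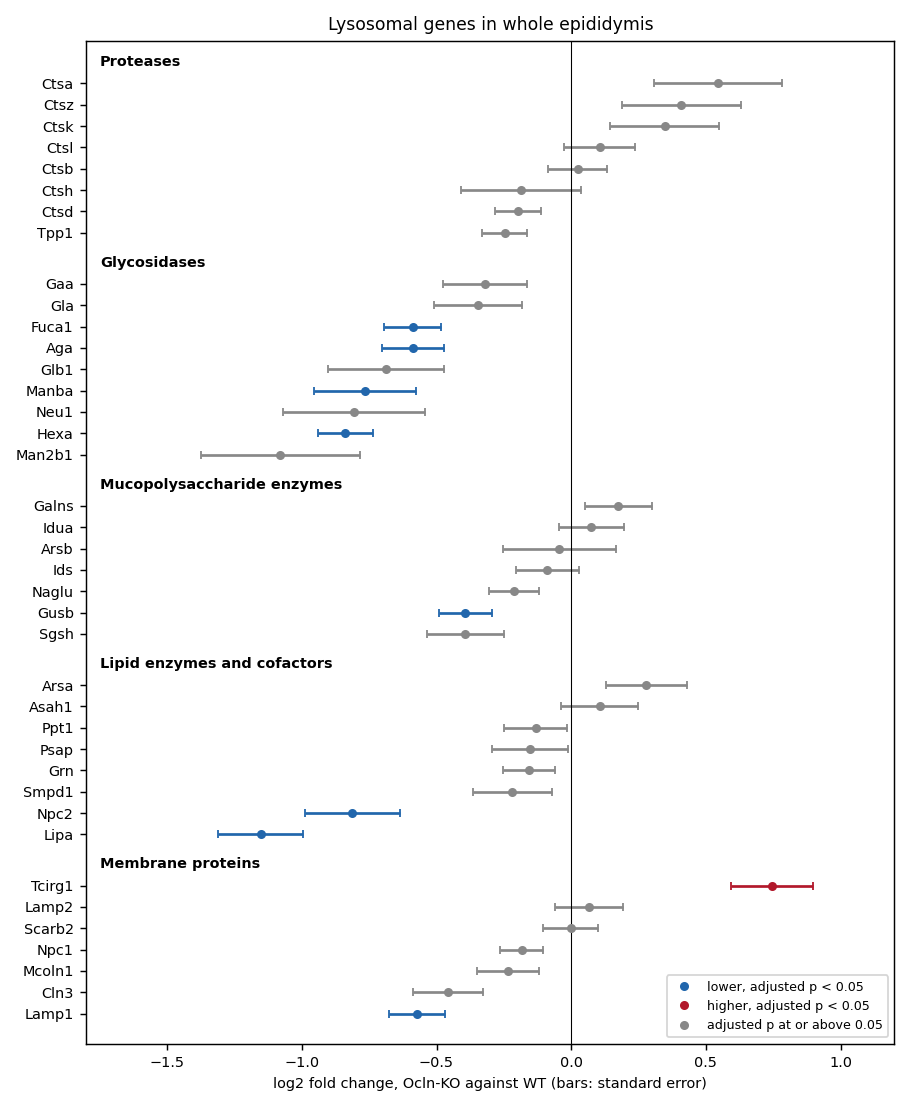
Log2 fold change of Ocln-KO against WT for each of the 39 lysosomal genes, grouped by role, with bars for 1 standard error and colour for the edgeR call. The 9 glycosidase genes all lie left of 0, from -1.08 to -0.32, while the protease genes lie on both sides, from -0.25 to 0.54.

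**Figure D2:**
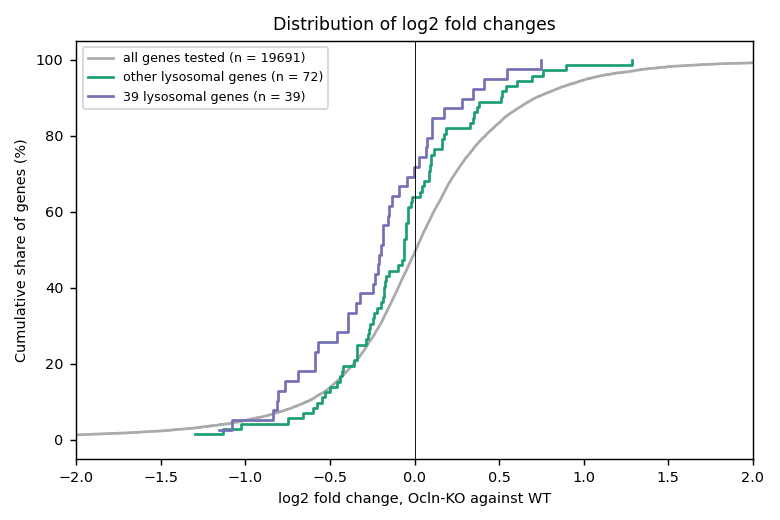
Cumulative share of genes (y, %) against log2 fold change of Ocln-KO against WT (x), for the 39 lysosomal genes, the 72 other lysosomal genes tested and all 19691 genes tested. The curve of the 39 crosses its median at -0.20, against -0.06 for the other lysosomal genes and 0.01 for all genes.

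The lysosomal genes took a smaller share of the library in Ocln-KO. They held 0.982%, 0.930% and 1.05% of the counts in WT replicates 1, 2 and 3 and 0.754%, 0.772% and 0.714% in the Ocln-KO replicates. The genotypes did not overlap, at 0.986% ± 0.0586 in WT and 0.747% ± 0.0297 in Ocln-KO (SD, n = 3). Npc2 weighed most in this sum, with 33.2% ± 0.896 of the lysosomal counts in WT and 26.3% ± 4.71 in Ocln-KO (SD, n = 3). Without Npc2, the summed level of the other genes was 6788 ± 311 CPM in the WT libraries, against 5338 ± 102 CPM in Ocln-KO (SD, n = 3), 21.4% lower on the means, where it was 28.6% lower with Npc2. The sums are given as values, without a test.

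Per kilobase of exon, the 4 leading genes had the same order in both genotypes. The length used merges all annotated exons of a gene, with 5438 bases for Npc2, 8026 for Man2b1 and 2351 for Ctsd. The order between genes therefore depends on the annotation as well as on the counts. On the RPKM scale, with the exon lengths of GENCODE M21, Npc2 had 620 ± 52.1 in WT and 353 ± 79.9 in Ocln-KO, Lamp1 456 ± 19.3 and 307 ± 26.1, Psap 336 ± 13.6 and 302 ± 56.8 and Ctsd 180 ± 7.93 and 157 ± 5.44 (SD, n = 3). Man2b1 followed in WT, at 120 ± 23.3, and was below Grn in Ocln-KO, at 56.9 ± 23.3 against 58.9 ± 5.7. In WT the leading genes lay further apart than their SDs, whereas in Ocln-KO the gaps between Npc2, Lamp1 and Psap were smaller than the SD of Npc2. Tcirg1, at 2.14 ± 0.0883 RPKM in WT and 3.59 ± 0.602 in Ocln-KO, was the lowest of the 39 in WT.

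The glycosidases, which remove sugars from glycoproteins and glycolipids, were the role group with the most genes that fell, 4 of 9 with Aga counted. In all 9 the fitted log2 fold change was below 0. Their median was -0.69. In 7 of the 9 the genotypes did not overlap, each Ocln-KO library being the lower. Over all genes tested, 5.04% fell and 19.4% had each Ocln-KO library below each WT library. Their summed level was 1742, 1604 and 2078 CPM in the WT libraries, against 1249, 973 and 824 CPM in Ocln-KO. Each Ocln-KO library was thus below each WT library.

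Hexa (chromosome 9, 59539540 to 59565109), for the alpha subunit of beta-hexosaminidase, had 104, 88.8 and 108 CPM in the WT libraries, against 53.6, 54.6 and 59.6 CPM in Ocln-KO. The Ocln-KO libraries were close together and all far below the lowest WT library, and the log2 fold change was -0.84 (SE 0.10, edgeR adjusted p = 0.0105). Without WT replicate 1 or 3 its adjusted p was 0.069 or 0.0601. Fuca1 (chromosome 4, 135920735 to 135940311), for alpha-L-fucosidase, had 212, 185 and 214 CPM in the WT libraries, against 146, 139 and 121 CPM in Ocln-KO. No Ocln-KO library reached the lowest WT library, with a log2 fold change of -0.59 (SE 0.11, edgeR adjusted p = 0.0233). The adjusted p of Fuca1 was 0.104, 0.0555 and 0.0949 without WT replicates 1, 2 and 3 and 0.0574 without Ocln-KO replicate 2.

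Aga (chromosome 8, 53511727 to 53523421), for aspartylglucosaminidase, which cuts the bond between asparagine and the sugar chain, had 58.6, 57.3 and 55.9 CPM in the WT libraries, against 39.4, 42.7 and 32.2 CPM in Ocln-KO. WT was tight and every Ocln-KO library was lower, giving a log2 fold change of -0.59 (SE 0.12, edgeR adjusted p = 0.0281), which became 0.115, 0.0814 and 0.0989 without WT replicates 1, 2 and 3. Manba (chromosome 3, 135485611 to 135571404), for beta-mannosidase, had 107, 101 and 113 CPM in the WT libraries, against 83.4, 47.7 and 57.6 CPM in Ocln-KO. Ocln-KO replicate 1 was nearest to WT, yet below it, and the log2 fold change was -0.77 (SE 0.19, edgeR adjusted p = 0.0467). Manba passed 0.05 in neither of the fits without Ocln-KO replicate 2 (0.094) or 3 (0.0639), nor without WT replicates 1, 2 and 3 (0.143, 0.102 and 0.148).

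Man2b1 (chromosome 8, 85083270 to 85098282), for lysosomal alpha-mannosidase, is the most abundant glycosidase gene here and had the lowest log2 fold change of the group without passing the test. It had 940, 792 and 1164 CPM in the WT libraries, against 640, 462 and 267 CPM in Ocln-KO, with a log2 fold change of -1.08 (SE 0.30, edgeR adjusted p = 0.0603). The genotypes did not overlap, but the Ocln-KO libraries were widely spread, and the adjusted p was 0.0294 without Ocln-KO replicate 1, 0.0382 without replicate 3 and 0.00122 with DESeq2. The beta-galactosidase gene Glb1 had 173 ± 32.0 CPM in the WT libraries, against 107 ± 31.3 CPM in Ocln-KO (SD, n = 3; log2 fold change -0.69, edgeR adjusted p = 0.0833), and the sialidase gene Neu1 had 9.55 ± 2.24 and 5.45 ± 1.44 CPM (-0.81, 0.092). The products of these last genes form a complex with that of Ctsa, a protease described below with the others of its kind. Part of the exon sequence of Glb1 (5.49%) is shared with Tmppe on the same strand, which had 43.6 CPM in WT, and how such reads were counted is not given in the sources used here. Gla, for alpha-galactosidase, and Gaa, for the glycogen-degrading acid alpha-glucosidase, had log2 fold changes of -0.35 and -0.32, with adjusted p of 0.202 and 0.218.

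**Figure D3:**
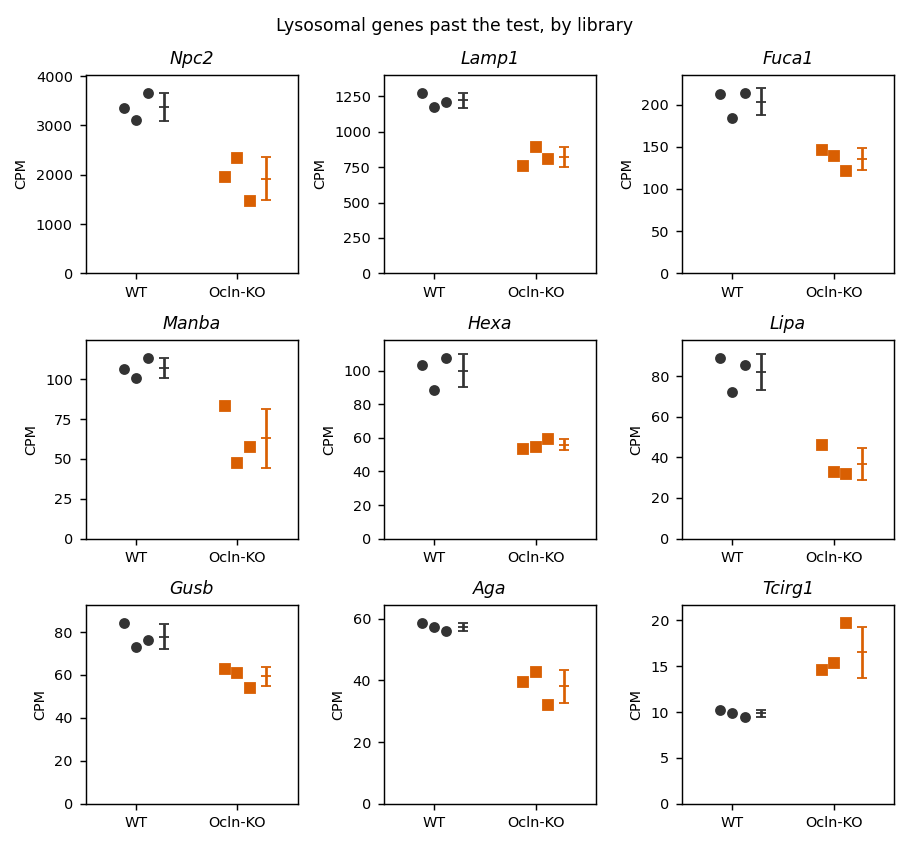
CPM (y) of the 9 lysosomal genes past the edgeR test in each WT library (circles) and each Ocln-KO library (squares), with the mean and SD of each genotype beside the points; each panel starts at 0. In 8 panels the 3 Ocln-KO libraries lie below the 3 WT libraries, and for Tcirg1 they lie above, at 14.6 to 19.7 CPM against 9.45 to 10.3 CPM.

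Among the 7 enzymes of glycosaminoglycan breakdown, 1 fell (14.3%), where 5.04% of all genes tested fell. Gusb (chromosome 5, 129989011 to 130003049), for beta-glucuronidase, had 84.2, 73.1 and 76.2 CPM in the WT libraries, against 62.7, 61.1 and 54.1 CPM in Ocln-KO. The genotypes did not overlap, and at -0.39 (SE 0.10, edgeR adjusted p = 0.0473) its log2 fold change was the smallest of the 9 genes that passed. The adjusted p of Gusb was over 0.05 without any one of the 6 libraries, from 0.0587 to 0.162. The sulfamidase gene Sgsh had the same fitted value, -0.39, with 27.6 ± 1.35 CPM in the WT libraries, against 21 ± 3.82 CPM in Ocln-KO (SD, n = 3; adjusted p = 0.119). The genotypes did not overlap for Sgsh, nor for Naglu, an alpha-N-acetylglucosaminidase gene (log2 fold change -0.21, adjusted p = 0.178). The iduronate sulfatase gene Ids, the iduronidase gene Idua, and the sulfatase genes Arsb and Galns had log2 fold changes from -0.09 to 0.17, and their genotypes overlapped. The median of the group was -0.09.

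Of the 8 genes for lipid enzymes and cofactors, 2 fell (25%), where 5.04% of all genes tested fell. Both serve the handling of cholesterol taken up into the lysosome: Lipa cuts cholesteryl esters and triglycerides, and NPC2 carries the freed cholesterol. Lipa (chromosome 19, 34492318 to 34527474) had 89.1, 72.3 and 85.4 CPM in the WT libraries, against 46.1, 32.9 and 31.9 CPM in Ocln-KO. The highest Ocln-KO library was well below the lowest WT library, and the mean fell by 55.0% (log2 fold change -1.15, SE 0.16, edgeR adjusted p = 0.0137). Lipa kept an adjusted p under 0.05 without WT replicate 2 or any one Ocln-KO replicate, and had 0.0784 and 0.0688 without WT replicates 1 and 3.

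Npc2 (chromosome 12, 84754562 to 84773152) ranked 19 by mean CPM among all genes tested. It had 3349, 3102 and 3666 CPM in the WT libraries, against 1947, 2340 and 1472 CPM in Ocln-KO. The genotypes did not overlap, and the log2 fold change was -0.81 (SE 0.18, edgeR adjusted p = 0.0351). Without WT replicates 1, 2 and 3 or Ocln-KO replicate 1, the adjusted p of Npc2 was 0.124, 0.0793, 0.126 and 0.0523.

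Psap (chromosome 10, 60277627 to 60302597), the precursor of the saposins that present lipids to their hydrolases, came after Npc2 and Lamp1 by mean CPM over all libraries. It had 912, 890 and 963 CPM in the WT libraries, against 713, 769 and 1007 CPM in Ocln-KO. The genotypes overlapped because Ocln-KO replicate 3 was the highest of the 6 libraries, and the log2 fold change was -0.15 (SE 0.14, edgeR adjusted p = 0.518). The other 5 genes did not pass either: Grn, for progranulin, the sphingomyelinase gene Smpd1 and the thioesterase gene Ppt1 had log2 fold changes of -0.16, -0.22 and -0.13, while Arsa, for the enzyme that removes sulfate from sulfatides, and the ceramidase gene Asah1 had 0.28 and 0.11. The median of the group was -0.15.

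Of the 7 membrane protein genes, 1 fell and 1 rose (14.3% each), where 5.04% of all genes tested fell and 3.91% rose. Lamp1 (chromosome 8, 13159161 to 13175338), for the major glycoprotein of the lysosomal membrane, had 1276, 1174 and 1212 CPM in the WT libraries, against 756, 895 and 811 CPM in Ocln-KO. The Ocln-KO libraries were all far below the WT libraries, with a log2 fold change of -0.57 (SE 0.10, edgeR adjusted p = 0.0237), which became 0.106, 0.0663 and 0.0932 without WT replicates 1, 2 and 3. Lamp2, for the related glycoprotein that also serves chaperone-mediated autophagy, had 337 ± 26.8 CPM in the WT libraries, against 353 ± 51.4 CPM in Ocln-KO (SD, n = 3; log2 fold change 0.07, adjusted p = 0.767).

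Tcirg1 (chromosome 19, 3896050 to 3907133), for an a subunit of the V-ATPase that acidifies lysosomes and the ruffled border of osteoclasts, had 10.3, 9.88 and 9.45 CPM in the WT libraries, against 14.6, 15.3 and 19.7 CPM in Ocln-KO. Each Ocln-KO library was above each WT library, with replicate 3 the highest, and the log2 fold change was 0.75 (SE 0.15, edgeR adjusted p = 0.0314). Without WT replicates 1, 2 and 3 or Ocln-KO replicate 2 the adjusted p of Tcirg1 was 0.113, 0.0881, 0.114 and 0.0609. The 4 remaining membrane genes did not pass: Cln3, for a membrane protein lost in juvenile Batten disease, had a log2 fold change of -0.46 (adjusted p = 0.0667), the cholesterol exporter gene Npc1 had -0.18, and the cation channel gene Mcoln1 had -0.24. Scarb2, for the receptor that brings beta-glucocerebrosidase to the lysosome, had 140 ± 8.68 CPM in the WT libraries, against 140 ± 15.4 CPM in Ocln-KO (SD, n = 3).

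None of the 8 protease genes passed the edgeR test, and 2, Ctsd and Tpp1, had an unadjusted p under 0.05, as 29.1% of all genes tested did; DESeq2 called none either. Their median log2 fold change was 0.06, and their summed level of 1407, 1377 and 1385 CPM in the WT libraries, against 1269, 1334 and 1396 CPM in Ocln-KO overlapped between genotypes. Ctsd (chromosome 7, 142375911 to 142388038), for the aspartic protease cathepsin D, had 434, 402 and 435 CPM in the WT libraries, against 355, 371 and 381 CPM in Ocln-KO. Each Ocln-KO library was the lower, at a log2 fold change of -0.20 (SE 0.09, edgeR adjusted p = 0.171), and 34.4% of its exon bases are shared with another annotated gene, Gm49369. Tpp1, for a tripeptidyl peptidase, was likewise without overlap, at 94.4 ± 3.51 and 79.6 ± 4.69 CPM (SD, n = 3; log2 fold change -0.25, adjusted p = 0.102).

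The cysteine protease genes Ctsb, Ctsl, Ctsh, Ctsk and Ctsz had log2 fold changes of 0.02, 0.11, -0.19, 0.35 and 0.41, and Ctsa, for the carboxypeptidase that protects Glb1 and Neu1, had 0.54. All 6 had overlapping genotypes. Ocln-KO replicate 3 was the highest of the Ocln-KO libraries for each of them but Ctsh, where it was the lowest: Ctsa had 22.2, 31.6 and 46.4 CPM in the Ocln-KO replicates, Ctsz had 15, 20 and 28 CPM, and Ctsh had 251, 244 and 133 CPM. Without Ocln-KO replicate 1, Ctsa had an adjusted p of 0.0408.

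The Ocln-KO libraries differed more among themselves than the WT libraries did, over all genes as well as over the lysosomal genes. The median SD of log2 CPM of the 39 genes was 0.107 in WT and 0.210 in Ocln-KO, and 33 of them (84.6%) had the larger SD in Ocln-KO. Over the 19469 tested genes with a count in every library, the median SD was 0.181 in WT and 0.236 in Ocln-KO, and 60.3% had the larger SD in Ocln-KO. Ocln-KO replicate 3 was the highest of the Ocln-KO libraries in 21 genes and the lowest in 11, or 53.8% and 28.2% of the 39, against 35.8% and 37.1% of all genes tested. The proteases and Tcirg1 were mostly among those where it was the highest, and Man2b1, Npc2, Fuca1, Aga and Gusb among those where it was the lowest.

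**Figure D4:**
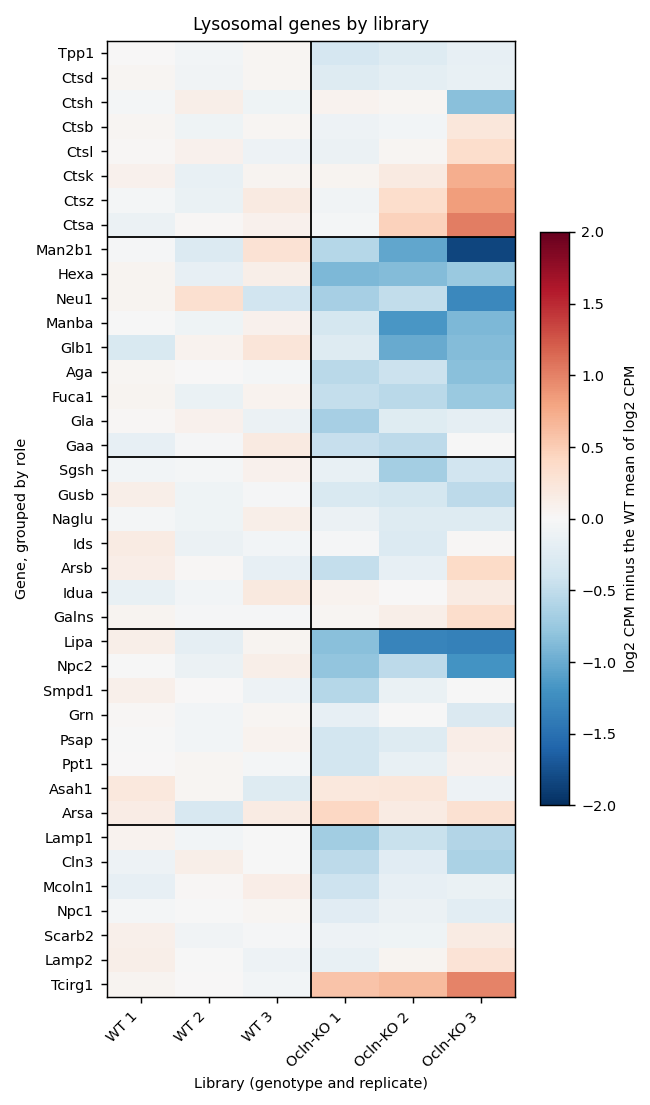
Heat map of the 39 lysosomal genes (rows, grouped by role) in the 6 libraries (columns), with colour for log2 CPM minus the WT mean of log2 CPM. The glycosidase rows are mostly blue (lower) in the 3 Ocln-KO columns, and the Ocln-KO 3 column holds both the darkest blue cells, such as Man2b1, and red cells among the proteases, such as Ctsa.

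Other lysosomal genes were read from 4 further lists with 74 genes, of which 72 were tested. In all, 10 fell (13.9%) and 3 rose (4.17%), where 5.04% of all genes tested fell and 3.91% rose. Their median log2 fold change was -0.06, beside 0.01 over all genes tested. Without WT replicates 1, 2 and 3 or Ocln-KO replicate 2, 1, 2, 2 and 3 fell.

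Of 27 further hydrolases and their cofactors, 2 fell and 2 rose (7.41% each), where 5.04% of all genes tested fell and 3.91% rose. Man2b2, another lysosomal mannosidase gene, had 45 ± 6.1 CPM in the WT libraries, against 28.4 ± 1.77 CPM in Ocln-KO (SD, n = 3; log2 fold change -0.66, edgeR adjusted p = 0.0233), and Plbd2, of the phospholipase B family, had a log2 fold change of -0.43 (adjusted p = 0.036). Both genes that rose encode cysteine proteases known for their part in antigen processing. Lgmn, for legumain, had 126, 142 and 118 CPM in the WT libraries, against 244, 227 and 183 CPM in Ocln-KO (log2 fold change 0.76, adjusted p = 0.0213). Ctss, for cathepsin S, had 22.3, 19.4 and 23.1 CPM in the WT libraries, against 32.1, 57.3 and 68.5 CPM in Ocln-KO (log2 fold change 1.28, adjusted p = 0.028). Neither overlapped between genotypes, and Ocln-KO replicate 3 was the lowest of the Ocln-KO libraries for Lgmn and the highest for Ctss.

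Of 17 further membrane proteins tested, 4 fell (23.5%) and 1 rose (5.88%), where 5.04% of all genes tested fell and 3.91% rose. Clcn7, for the lysosomal chloride-proton exchanger, and Ostm1, for its partner subunit, both fell, with log2 fold changes of -0.75 and -1.03 (edgeR adjusted p = 0.0436 and 0.0044). Ostm1 had 90.3 ± 5.46 CPM in the WT libraries, against 44.3 ± 2.44 CPM in Ocln-KO, and Clcn7 had 260 ± 14 and 155 ± 39 CPM (SD, n = 3). Laptm4b, a transmembrane protein gene, had a log2 fold change of -1.13 (adjusted p = 0.00637), and Sidt2, for a membrane protein linked to uptake of nucleic acids, had -0.43 (0.0392). Slc38a9, for the amino acid sensor that signals to mTORC1, rose from 17.9 ± 1.96 to 28.9 ± 2.04 CPM (SD, n = 3; log2 fold change 0.69, adjusted p = 0.0214).

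Of 12 genes that sort or activate lysosomal enzymes, 2 fell (16.7%), where 5.04% of all genes tested fell. They were Cln6, for a membrane protein of the endoplasmic reticulum (log2 fold change -0.58, edgeR adjusted p = 0.0205), and Sumf1, for the enzyme that activates sulfatases (-0.53, 0.0339). The mannose 6-phosphate receptor genes M6pr and Igf2r had log2 fold changes of -0.25 (adjusted p = 0.107) and -0.06 (0.679). Of 16 regulators tested, 2 fell (12.5%). They were Lamtor1 and Lamtor5, for subunits of the complex that anchors mTORC1 signalling to the lysosome (log2 fold change -0.60 and -0.46, edgeR adjusted p = 0.0288 and 0.0498). The transcription factor gene Tfeb had 10.8 ± 2.64 CPM in the WT libraries, against 10.6 ± 1.12 CPM in Ocln-KO (SD, n = 3; log2 fold change -0.02, adjusted p = 0.962), and Tfe3 and Mitf had log2 fold changes of 0.35 (0.197) and 0.38 (0.215).

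A RefSeq promoter, 250 bases before to 50 bases after the start, was found for 33 of the 39 lysosomal genes. CACGTG, which reads the same on both strands, was in 12 of them (36.4%), against 8.09% of the promoters of 27025 genes and 10.6% of those of the tested genes. With the flanking base, TCACGTG on either strand was in 11 (33.3%), against 4.29% of all promoters and 6.11% of those of the tested genes. Every such match holds a CACGTG. Of the 7 genes that fell and had a promoter, 1 held CACGTG, Lamp1, with the 4 copies shown above. Of the 25 that did not pass the test, 11 held it: Arsa, Cln3, Ctsa, Ctsd, Ctsl, Gaa, Gla, Glb1, Mcoln1, Naglu and Sgsh. Cln3 held it only at its start inside the annotated gene. Tcirg1 had none. A match is a description of the sequence, and binding was not measured.

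Markers of clear cells and of macrophages, cell types with many lysosomes, were also read. Of 7 clear cell markers tested, 4 fell (Atp6v0d2, Atp6v0a4, Foxi1 and Atp6v1b1), where 5.04% of all genes tested did. All 7 had each Ocln-KO library below each WT library, as 19.4% of all genes did. Their median log2 fold change was -0.79. The summed level of the clear cell list was 272, 243 and 341 CPM in the WT libraries, against 141, 145 and 73.5 CPM in Ocln-KO. Car2 weighed most in the WT sums, with 137, 98.5 and 161 CPM. It had 46.4, 62.7 and 5.89 CPM in Ocln-KO and did not pass (edgeR adjusted p = 0.127). Slc26a4, the eighth of the list, was at 0 in all libraries but 1. Clear cell marker levels were thus lower in each Ocln-KO library, as the summed level of the glycosidases and the levels of Lipa and Npc2 were, and the part of clear cells in those values was not tested.

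Of 14 macrophage markers tested, 13 had a fitted log2 fold change above 0. Cd163, for a scavenger receptor, was the exception at -0.71 (edgeR adjusted p = 0.155), with 13.3, 23.9 and 10.9 CPM in the WT libraries, against 10.8, 7.91 and 10.6 CPM in Ocln-KO. Of the 14, 1 rose (Mpeg1, log2 fold change 1.29, edgeR adjusted p = 0.0351), where 3.91% of all genes tested rose. The median of the 14 was 0.55. In 9 of the 14 the genotypes overlapped, as they did in 12534 of all 19691 genes tested. An unadjusted edgeR p under 0.05 was found for 9, Cd163 among them, where 29.1% of all genes tested had one. Their sum was 322, 291 and 274 CPM in the WT libraries, against 344, 411 and 642 CPM in Ocln-KO. Ocln-KO replicate 3 was thus the highest. It was also the highest of the Ocln-KO libraries in 53.8% of the 39 lysosomal genes. These included Ctsa, Ctsk, Ctsz and Tcirg1, but also Hexa, which fell, and Ctsd and Psap. Of the other lysosomal genes that rose, it was the highest for Ctss and Slc38a9 and the lowest for Lgmn. Aif1 was at 0 in every library. The part of macrophages in those levels was not tested.

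The other marker lists were read as follows. Of 6 smooth muscle markers 2 rose (Myh11 and Actg2), and of 6 basal cell markers 1 rose (Krt14), where 3.91% of all genes tested rose. None of 8 initial segment and caput markers, 8 sperm and spermatid markers, 6 osteoclast and fibroblast markers or 6 epididymal transcripts passed the edgeR test, with 0, 1, 1 and 2 at an unadjusted p under 0.05. The epididymal transcripts summed to between 25939 and 30472 CPM in the WT libraries, against between 17665 and 25244 CPM in Ocln-KO. Crisp1, a sperm-binding secretory protein gene of the epididymis, led them with 14891 ± 2188 and 7852 ± 2982 CPM (SD, n = 3; edgeR adjusted p = 0.0855).

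**Figure D5:**
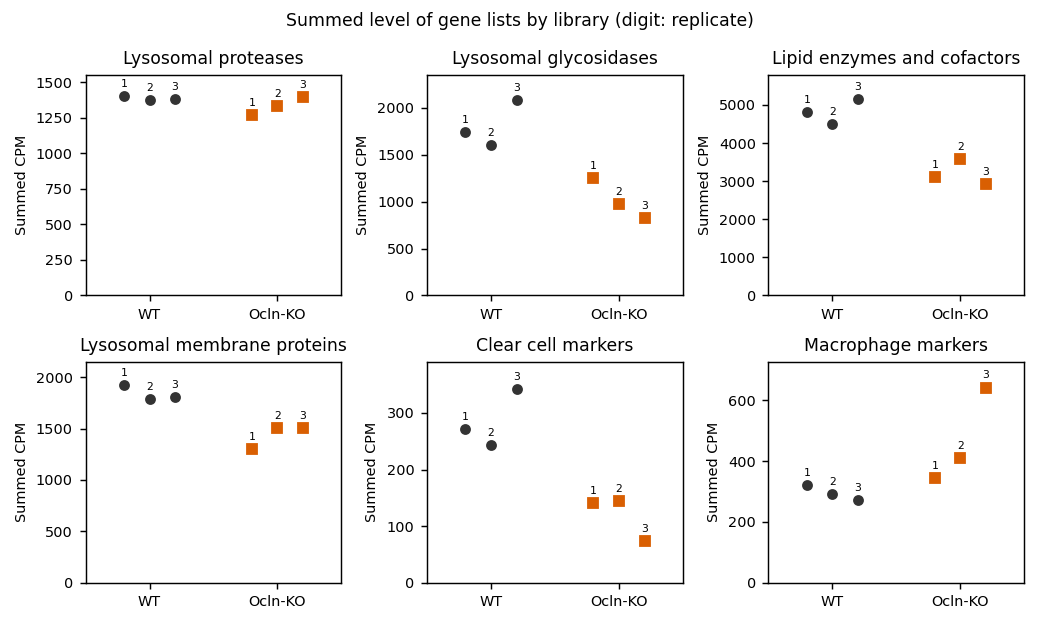
Summed CPM (y, from 0) of 4 lysosomal role groups, of clear cell markers and of macrophage markers in each library, with the replicate number above each point. The glycosidase, lipid, membrane and clear cell sums are lower in each Ocln-KO library than in any WT library, the protease sums overlap, and the macrophage sums are higher, with Ocln-KO replicate 3 at 642.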

How the data were processed

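Whole-epididymis RNA of 3 WT and 3 Ocln-KO libraries was analysed. The authors aligned paired-end reads of a directional, rRNA-depleted library to GRCm38 with hisat2 (2.0.4 in the submitters' processing notes) and assigned them to genes with HTSeq. What the authors deposited are raw counts per gene, not normalized. The counting mode, annotation and strand setting are not given in the sources used here, and the exons of 14 of the 39 genes overlap an antisense gene and those of 3 a gene on the same strand. One protocol text in the sample records names prefrontal cortex, whereas the tissue label is epididymis. Symbols were used as listed: 28 had been turned into dates (0.145% of counts) and 2 were repeated.

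Counts were fitted in R 4.3.3 with edgeR 4.0.16 (filterByExpr, TMM factors, glmQLFit and glmQLFTest, genotype as the only term), with Benjamini-Hochberg adjustment over 19691 genes. The SE is the size of the log2 fold change over the square root of the F statistic. CPM use TMM-scaled library sizes from 31860861 to 37410050. With 3 libraries against 3, an exact permutation test cannot give a two-sided p under 0.1, so none is given. RPKM values were computed here from CPM and the summed length of all merged exons of a gene in GENCODE M21, whose GRCm38 coordinates are printed. Promoters come from RefSeq GRCm38.p6. The 39 genes and all lists (4 of other lysosomal genes, 8 of markers) were chosen with earlier results of these data known, so that their counts are descriptions. All 39 are named, with values per library for those past the test and for the 5 most abundant by CPM; in the other lysosomal lists, genes past the test are named. M6pr, Igf2r, Tfeb, Tfe3 and Mitf, the markers named and the values per library of Ctsa, Ctsz and Ctsh were added after the values were seen.

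As alternatives, DESeq2 1.42.0 and limma-voom (limma 3.58.1) replaced edgeR, and TMM was replaced by RLE factors, by unscaled totals, or by factors computed after removal of the 20 top genes. The filter was dropped or set to 10 counts in each library, the replicate number was added as a block, a 2-fold threshold was added to the call, and libraries were left out one at a time. The main fit has no block. Same-numbered libraries did not deviate together, which cannot show that the samples were unpaired.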

Additional observations from a re-analysis of the deposited data

How the results depend on the processing

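Of the 39 lysosomal genes, 8 fell and 1 rose, and limma-voom, RLE factors, factors computed without the 20 top genes and a minimum of 10 counts called the same 9. DESeq2 called 13, these 9 with Cln3, Glb1, Man2b1 and Neu1, and without a count filter Glb1 and Man2b1 were added. With total counts only, 7 of the 9 were called (Gusb and Manba were not), 5 other lysosomal genes fell, 1175 of all genes rose, and the median of the 39 was -0.11, where the median of all genes moved up by 0.0854. DESeq2 called 1708 of all genes lower and 1604 higher, against 992 and 770 in the main test. A 2-fold threshold left 1 of the 39 lower and 0 higher, 2 other lysosomal genes lower and 1 higher, and 335 and 293 of all genes.

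Leaving out 1 library gave 0 to 8 of the 39 lower and 0 to 2 higher, 1 to 10 other lysosomal genes lower and 0 to 5 higher, 19 to 944 of all genes lower and 4 to 782 higher, and a median of the 39 from -0.29 to -0.16. Fewer libraries enter each of these fits. Same-numbered libraries did not share deviations from their genotype means (correlations -0.05, -0.03 and -0.002). With so few libraries, these values cannot show whether the samples were paired. The methods speak of pairs of mice, and what same-numbered libraries share is not given in the sources used here. With a replicate block, 0 of the 39 fell and 0 rose (16 were lower and 2 higher at an unadjusted p under 0.05), 1 other lysosomal gene fell and 0 rose, and 31 and 10 of all genes did; the block takes residual degrees of freedom.

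The fitted direction turned in 8 of the 39, none of them past the test in either direction. With total counts only, Arsb had 0.040 and Scarb2 0.083, and Scarb2 had 0.0048 with DESeq2 and with RLE factors. With a library left out, the log2 fold change ran from -0.086 to 0.090 for Ctsb, -0.33 to 0.054 for Ctsh, -0.037 to 0.21 for Ctsl, -0.15 to 0.00025 for Ids, -0.31 to 0.14 for Arsb, -0.010 to 0.22 for Asah1, -0.046 to 0.17 for Lamp2 and -0.098 to 0.050 for Scarb2. The cause was not tested. The 39 lysosomal genes had CPM well above the 0.0942 CPM that 3 counts are worth at most, whereas the markers Aif1 and Slc26a4 lay below it.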
